A study of Mus musculus with 6 samples.

Results

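Mitosis is driven by cyclin-dependent kinase 1 with cyclins A and B, and by the polo, aurora and NEK kinases, which build the spindle and release the chromosomes once every kinetochore is attached. Kinesins move and cross-link spindle microtubules, condensins compact the chromosomes, and the chromosomal passenger complex and centralspindlin guide the cut between the daughter cells. Most of these genes are transcribed late in the cell cycle, are nearly silent in resting cells and are widely read as a sign of proliferation. The genes described here are 45 such genes, taken by symbol from the array's platform annotation. Of these 40 were measured among 12393 genes tested, and Ccnb1, Kif15, Kif20b, Cenpi and Cdca8 were not analysed here.

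RNA came from mouse embryonic fibroblasts, connective tissue cells cultured from embryos and called wild type in the labels. One group, 3 arrays, was starved for 6 h, and the other, 3 control arrays, was kept in normal medium. The labels do not say what the starvation medium lacked, and no time other than 6 h was sampled. Arrays of a group are titled biological replicates without a statement that they came from separate cultures, so the p-values cover only how much these samples scatter, and that scatter may be technical. Levels are array signals on a log2 scale, and each difference is the starved mean less the control mean on that scale.

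Nearly every measured mitotic gene was higher after 6 h of starvation. In the deposited scaling 38 of 40 rose and 0 fell, against 22.1% of all genes tested that rose, 22% that fell and 44.1% that did either, and the median difference was 0.73, a 1.66-fold higher level, against −0.048 over all genes. The kinetochore subunit Ndc80 had the largest difference (1.63) and the spindle assembly factor Tpx2 the smallest (−0.02). Tpx2 and the chromosome-arm kinesin Kif22 did not pass the test. A difference of at least 1 was reached by 8 of the 40, against 2.64% of all genes. In each of the 38 that rose every starved array lay above every control array, which held for 25.7% of all genes, and in 0 of the 40 all starved arrays lay below, which held for 28.4%. In whole cultures a larger share of cells in mitosis and more of these transcripts per cell cannot be told apart.

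Calls were made with limma's moderated test and Benjamini-Hochberg adjustment over all genes at an adjusted p below 0.05. No member was lower at an unadjusted p below 0.05 either (0 of 40). Centring each array on its poly-A spikes, control RNAs added before labelling (poly-A spike centring), moves all differences down by 0.43 and the median of all genes to −0.47. With it 25 of the 40 rose, 2 fell (Kif22 and Tpx2) and 13 did not pass, against 6.94% of all genes that rose and 75.2% that fell, and the median of the mitotic genes was 0.31. With hybridization spike centring, on controls added later, 35 rose and 0 fell, against 13.5% and 49.2% of all genes, and with centring on array medians 38 rose and 0 fell, against 19.7% and 26.9%.

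The arrays of the groups stood apart on the spikes and on a measure of RNA quality. The poly-A spikes averaged 7.41 to 7.43 in control and 7.76 to 7.96 in starved arrays, and the hybridization spikes 10.12 to 10.14 and 10.26 to 10.37. The medians over all probe sets lay between 6.73 and 6.81, and the signal of the beta-actin probe set at the 3′ end minus that at the 5′ end was 0.012 to 0.027 in control and 0.060 to 0.14 in starved arrays. Fibroblast markers averaged 10.45 to 10.54 in control and 10.58 to 10.65 in starved arrays, and of 11 markers 6 rose, 3 fell and 2 did not pass in the deposited scaling. The collagen genes Col1a1, Col1a2 and Col3a1 were bright, and the fallen markers were the bright receptor Pdgfrb (−0.28 from a control mean of 11.26) and the dim surface proteins Thy1 and Fap (control means 4.99 and 4.90). Markers of blood, endothelial, epithelial, muscle and neural cells, 29 in all, averaged 4.72 to 4.77 in control and 4.66 to 4.73 in starved arrays. Of these 3 rose (Cd68, Cdh1 and Map2), 4 fell (Cd14, Coro1a, Kdr and Pecam1) and 22 did not pass. Among all genes 22.1% rose and 22% fell in the deposited scaling. The part of the markers in the results was not tested.

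**Figure D1:**
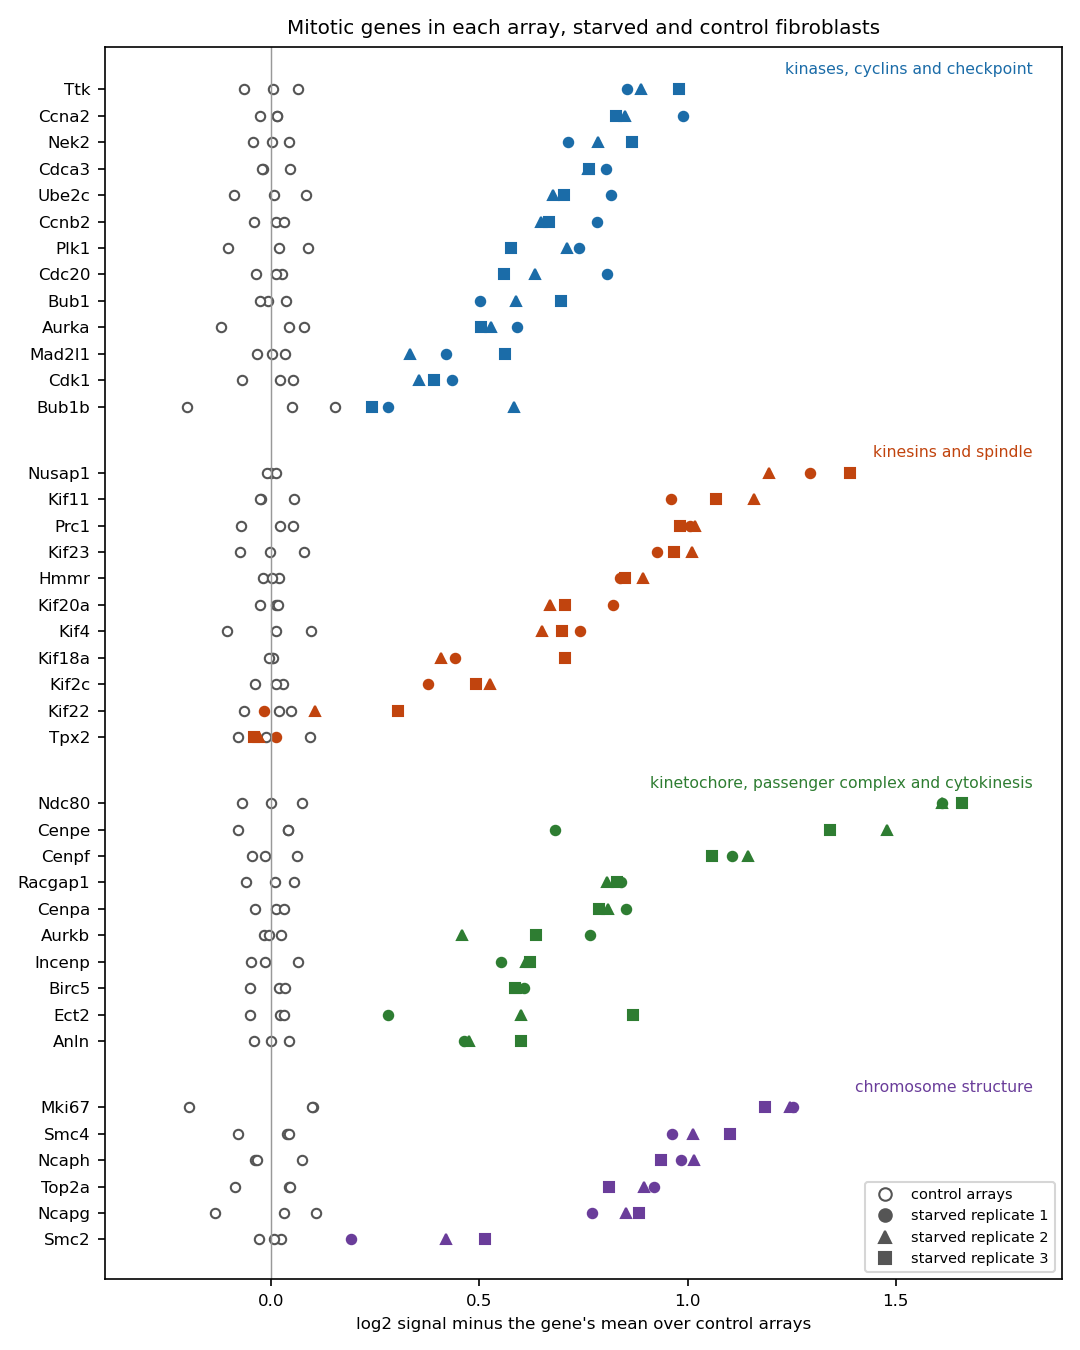
Log2 signal of each measured mitotic gene minus its mean over the 3 control arrays (horizontal axis), by role; open circles are control arrays and filled symbols the 3 starved arrays. In the deposited scaling the starved arrays lie to the right of every control array for all genes shown except Kif22 and Tpx2. The starved arrays of Cenpe and Ect2 are the most spread. Poly-A spike centring would move the filled symbols to the left by 0.43 on average. The move would differ between the starved arrays, whose poly-A spikes averaged 7.82, 7.96 and 7.76 in replicates 1, 2 and 3.

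Many promoters of these genes carry 2 short elements. The cell cycle genes homology region (CHR), in its usual form TTTGAA, is bound by the MuvB core that the DREAM repressor shares with the activating complexes of B-Myb and FoxM1, and CCAAT boxes are bound by NF-Y. Windows of 300 bases from RefSeq (GRCm38.p6), from 250 bases before the annotated start to 50 after it, were found by symbol for 34 of the 40 genes. They were searched on both strands for TTTGAA, which reads TTCAAA from the other strand, and for CCAAT, which reads ATTGG from the other strand. The motifs shared no bases in any of these genes. The 100 bases before the start are shown for the 7 genes in which both motifs lie wholly within them, and for Nusap1, which has neither motif in its window and was the gene with the largest difference among those with neither. The motifs are in capitals, 5′ to 3′ on the gene's strand.

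Cdk1 promoter (chr10:69352913-69353012, minus strand): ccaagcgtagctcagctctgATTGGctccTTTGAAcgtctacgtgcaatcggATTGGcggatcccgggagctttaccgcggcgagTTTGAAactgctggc
Cdc20 promoter (chr4:118437344-118437443, minus strand): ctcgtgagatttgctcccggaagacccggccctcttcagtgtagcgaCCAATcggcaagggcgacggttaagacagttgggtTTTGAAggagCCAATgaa
Ube2c promoter (chr2:164769829-164769928, plus strand): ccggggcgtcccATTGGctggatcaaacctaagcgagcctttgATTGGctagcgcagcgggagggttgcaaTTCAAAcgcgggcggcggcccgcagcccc
Kif11 promoter (chr19:37376282-37376381, plus strand): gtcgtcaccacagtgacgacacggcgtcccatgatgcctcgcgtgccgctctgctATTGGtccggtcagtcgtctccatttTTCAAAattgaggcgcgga
Kif22 promoter (chr7:127042421-127042520, minus strand): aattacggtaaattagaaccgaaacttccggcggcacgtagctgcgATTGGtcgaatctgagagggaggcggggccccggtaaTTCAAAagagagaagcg
Prc1 promoter (chr7:80294376-80294475, plus strand): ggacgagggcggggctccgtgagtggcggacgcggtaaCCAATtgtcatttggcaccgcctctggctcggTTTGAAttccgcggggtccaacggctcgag
Top2a promoter (chr11:99024190-99024289, minus strand): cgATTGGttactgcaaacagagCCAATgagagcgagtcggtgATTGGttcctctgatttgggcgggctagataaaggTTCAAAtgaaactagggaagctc
Nusap1 promoter (chr2:119618198-119618297, plus strand): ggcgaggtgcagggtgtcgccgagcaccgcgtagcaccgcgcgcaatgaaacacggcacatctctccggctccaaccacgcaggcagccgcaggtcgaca

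In Cdk1 and Top2a several CCAAT boxes stand before the CHR nearest the start, whereas Kif11 and Prc1 show 1 of each in the stretch printed. A CHR was found in 26 of the 34 mitotic promoters (76.5%), against 15.4% of the 9887 genes tested that had a window and 17.9% of all 32851 windows. CCAAT was also found in 26 of 34 (76.5%), against 42.3% of genes tested and 37.4% of windows. Both motifs were found in 23 of 34 (67.6%), against 7.23% of genes tested and 6.95% of windows. The related gene lists described below differed. Both motifs were in 42.1% of 19 further spindle, centrosome and cytokinesis genes, 30.0% of 10 regulators and 22.7% of 22 further kinetochore genes. The share was 12.5% of 8 cohesin and condensin genes and 7.14% of 14 entry and exit genes. It was 7.14% of 28 replication genes and 0 of 14 genes of the anaphase-promoting complex list. The CHR lay close to the start. In 24 of the 26 genes the nearest CHR began within 50 bases of it, and the median position was 4.5 bases past the start. A CHR that near was found in 70.6% of the 34 promoters, against 4.01% of genes tested. Of the 1520 genes tested with a CHR in the window, 396 had one that near. At least 2 CCAAT boxes were present in 17 genes, and the share over all genes is not given here.

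**Figure D2:**
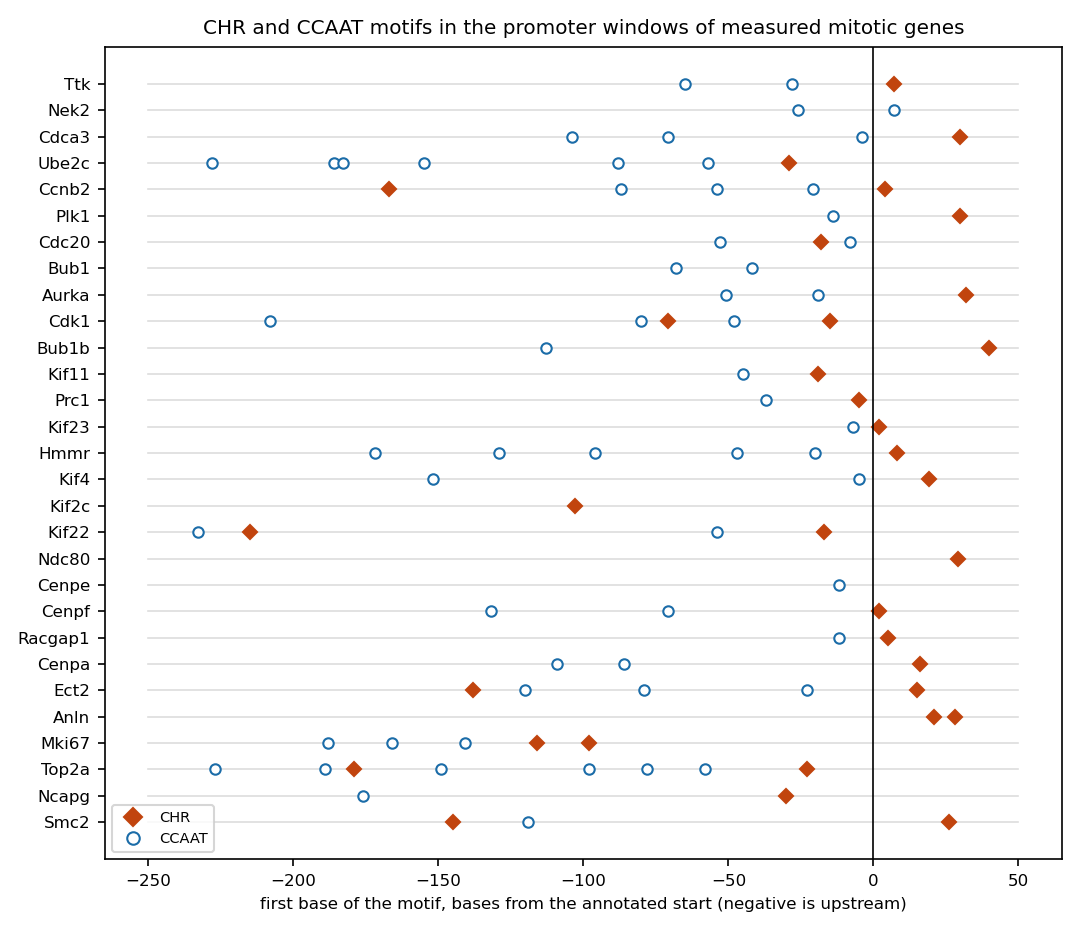
Positions of the CHR (diamonds) and CCAAT (circles) motifs, on either strand, in the promoter windows of measured mitotic genes; the horizontal axis is the distance of the motif's first base from the annotated start, in bases. Diamonds gather within 50 bases of the start for 24 of 26 genes, and circles mostly lie upstream of them; genes with neither motif are not drawn, and for a gene with 2 windows 1 is drawn.

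Nearly all genes rose whichever motifs they had, so their counts cannot show whether the motifs go with the size of the difference, and that was not tested. In the deposited scaling 22 of 23 genes with both motifs rose, with a median of 0.78, and so did all 5 with neither (Mad2l1, Kif18a, Nusap1, Birc5 and Ncaph), with a median of 0.59. The 3 with a CHR only and the 3 with CCAAT only rose too, with medians of 0.51 and 0.79. Outside the mitotic genes and all other gene lists used here, 24.1% of the 671 genes tested with both motifs rose, against 21.8% of the 4837 with neither. With both motifs within 50 bases of the start the share was 33.0% of 88 genes, against 21.8% of 7912 with neither there, while 27.3% of those 88 fell. These are descriptions of the windows, and a match is not a bound site.

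Kinases, cyclins and the checkpoint came first in the comparison of roles. All 13 measured genes of this role rose in the deposited scaling, against 22.1% of all genes. Their median was 0.68 and their range 0.37 (Bub1b) to 0.91 (Ttk). Under poly-A spike centring 8 rose and 0 fell, against 6.94% and 75.2% of all genes, and the median of the role was 0.25. Cdk1, the kinase that drives entry into mitosis, read 10.82, 10.79 and 10.70 in control and 11.21, 11.13 and 11.16 in starved arrays. Its groups did not overlap, but at 0.39 (SE 0.07, 1.31-fold, adjusted p = 0.00116) its difference was the third smallest of the 38, and it lost its call under hybridization (0.21, adjusted p = 0.0608) and poly-A spike centring (−0.033). Its partner Ccna2, cyclin A, differed more on the probe set used. That probe set read 10.61, 10.65 and 10.65 in control and 11.62, 11.48 and 11.46 in starved arrays (0.89, SE 0.07, adjusted p = 7.66e-06). The further probe set of Ccna2 rose by 0.51 (SE 0.08), nearer to the difference of Cdk1. That further probe set was the brighter in control (means 10.72 and 10.64) and the dimmer in starved arrays (11.23 and 11.52). The probe set used was chosen by its mean over all arrays, so the starved values decided the choice. The rise of 0.89 and its adjusted p therefore partly reflect that choice. The B-type cyclin Ccnb2 rose by 0.70 (SE 0.07, adjusted p = 3.16e-05), from 10.32 ± 0.04 to 11.02 ± 0.07 (SD, n = 3 arrays in each group, here and below).

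The mitotic kinases rose to different extents. The polo kinase Plk1, which acts from entry to cytokinesis, read 9.62, 9.43 and 9.55 in control and 10.27, 10.25 and 10.11 in starved arrays, a difference of 0.68 (SE 0.08, adjusted p = 8.85e-05). The centrosomal kinases Nek2 and Aurka rose by 0.79 and 0.54. Aurora A is activated on the spindle by Tpx2, and that partner did not pass the test. Tpx2 read 10.29, 10.12 and 10.19 in control and 10.21, 10.17 and 10.16 in starved arrays. The starved values lay inside the control range, with a difference of −0.02 (95% interval −0.18 to 0.14, adjusted p = 0.846). The second Tpx2 probe set did not pass either (−0.10, adjusted p = 0.344).

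Checkpoint kinases and proteins, which hold anaphase back until the kinetochores are attached, all rose in the deposited scaling, and of the 4 Ttk alone kept its call under poly-A spike centring (0.48). The kinase Ttk, also called Mps1, read 8.62, 8.69 and 8.75 in control and 9.54, 9.58 and 9.67 in starved arrays (0.91, SE 0.07, adjusted p = 6.87e-06). The kinase Bub1 rose by 0.60 and Mad2l1, the inhibitor of Cdc20, by 0.44, against 0.17 (adjusted p = 0.143) and 0.011 (adjusted p = 0.928) under poly-A spike centring. Bub1b, which binds Cdc20 together with Mad2l1, was the least firm of the rises. It read 9.89, 9.79 and 9.54 in control and 10.02, 10.32 and 9.98 in starved arrays (0.37, SE 0.12, adjusted p = 0.0264). The nearest arrays of both groups almost met, and Bub1b no longer passed without control replicate 3 (0.27, adjusted p = 0.0981) or without starved replicate 2 (0.26, adjusted p = 0.0941), nor under hybridization (0.18, adjusted p = 0.167) or poly-A spike centring (−0.058, adjusted p = 0.628).

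The genes that end mitosis rose as well. Cdc20, the activator of the anaphase-promoting complex, read 10.69, 10.67 and 10.62 in control and 11.47, 11.29 and 11.22 in starved arrays (0.67, SE 0.08, adjusted p = 9.43e-05). Ube2c, the ubiquitin-conjugating enzyme of that complex, rose by 0.73 from 11.60 ± 0.09. Cdca3, listed in the same role but a trigger of mitotic entry, rose by 0.78 from 10.91 ± 0.04. Few parts of the anaphase-promoting complex itself passed. The list held 15 measured genes, its subunits and the conjugating enzymes Ube2s and Ube2d1. In the deposited scaling 2 of them rose, Anapc7 (0.55) and Anapc2 (0.35), 0 fell and 13 missed the threshold. Over all genes tested 22.1% rose and 22% fell. The median of the list was 0.050 and became −0.14 and −0.38 under hybridization and poly-A spike centring. At an unadjusted p below 0.05 the subunit Cdc26, the lowest, was lower (−0.18), and under poly-A spike centring 12 of the 15 fell, against 75.2% of all genes.

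Kinesins and spindle proteins differed most among themselves, from −0.02 (Tpx2) to 1.29 (Nusap1). Of 11 measured, 9 rose in the deposited scaling, against 22.1% of all genes, the other 2 failed the test, and the median was 0.73. Under poly-A spike centring 7 rose and 2 fell, against 6.94% and 75.2% of all genes, and the median of the role was 0.31. Nusap1, which bundles spindle microtubules, read 9.49, 9.50 and 9.48 in control and 10.78, 10.69 and 10.88 in starved arrays (1.29, SE 0.07, 2.45-fold, adjusted p = 7.92e-07). Its arrays agreed closely within each group, and the gap between the groups was many times that scatter. Its promoter window, printed above, holds neither motif.

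The Kif motors of this role differed by 0.13 to 1.06 on the probe sets used. Kif11, the motor that pushes the spindle poles apart, read 8.42, 8.42 and 8.50 in control and 9.41, 9.61 and 9.52 in starved arrays (1.06, SE 0.08, adjusted p = 3.28e-06). Kif23, the motor of centralspindlin, rose by 0.97, Kif20a, which carries the passenger complex to the midzone, by 0.73 and the chromosome motor Kif4 by 0.70. Kif18a, which limits microtubule length at kinetochores, rose by 0.52 and the microtubule depolymerase Kif2c by 0.46. Prc1, which cross-links the microtubules of the midzone, reached 1.00 (10.11 ± 0.07 to 11.11 ± 0.02, adjusted p = 2.66e-06), and the hyaluronan receptor and spindle protein Hmmr reached 0.86.

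Kif22, a motor that pushes chromosome arms outward, was the other gene that did not pass. Its brightest probe set read 10.52, 10.60 and 10.63 in control and 10.57, 10.69 and 10.89 in starved arrays, so the groups overlapped (0.13, 95% interval −0.07 to 0.33, adjusted p = 0.272). Its 2 dimmer probe sets rose, by 0.81 (adjusted p = 3.43e-05) and 0.74 (adjusted p = 9.88e-05), and the mean of its probe sets by 0.56. By their names the brightest probe set and the one at 0.81 are of types that can bind several transcripts, and the one at 0.74 is not. Which probe set follows the Kif22 transcript was not tested.

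**Figure D3:**
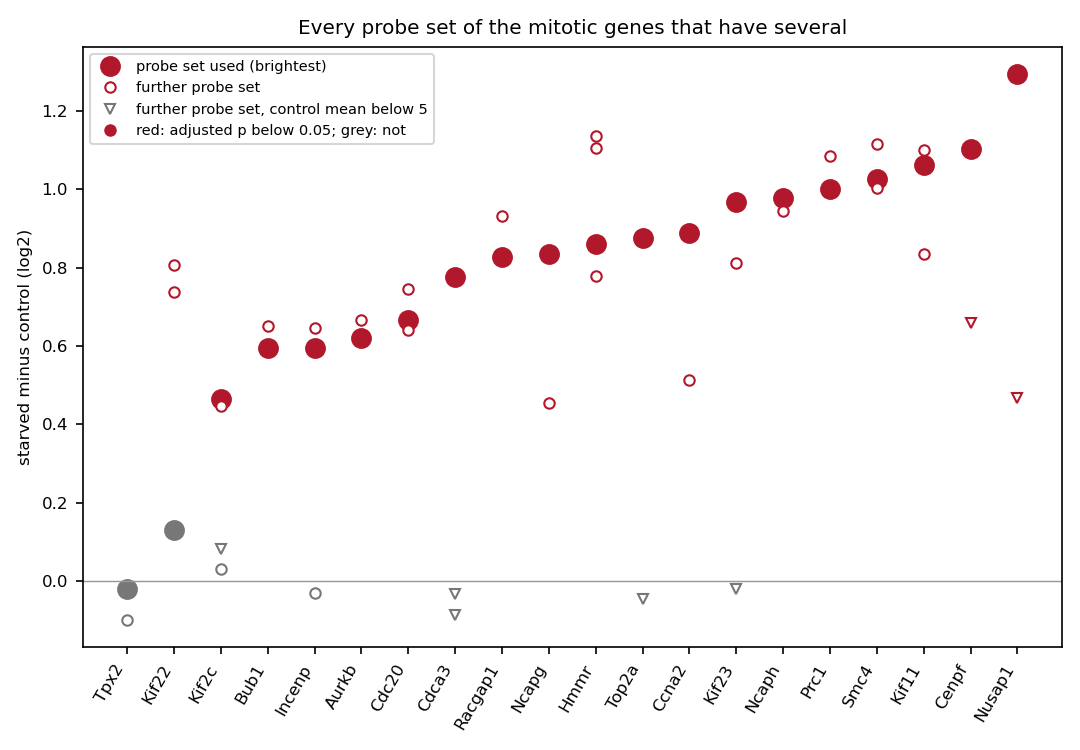
Starved minus control difference (log2, vertical axis) for every probe set of the 20 mitotic genes that have several; large filled symbols are the brightest probe sets, used for the gene, red passed the test and grey did not. In the deposited scaling the further probe sets lie near the one used for some genes, such as Cdc20, Ncaph and Smc4. Both probe sets of Tpx2 lie near 0. The probe sets of Kif22, Incenp, Kif2c, Ccna2 and Ncapg part. Dim further probe sets of Nusap1, Cenpf, Cdca3, Kif23 and Top2a (control mean below 5) lie well below the one used. Poly-A spike centring would lower each point by 0.43.

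Separate probe sets of a gene read the same RNA on the same arrays, so they check the probes and add no replicates. The 40 genes had 71 probe sets, and 20 genes had several. Tested on their own, 23 of the 31 further probe sets rose in the deposited scaling, 0 fell and 8 did not pass, against 20.4% of all probe sets tested that rose. Of the 24 further probe sets with a control mean of at least 5, 21 rose. In 14 of the 20 genes all probe sets had the same call. Incenp had a probe set at −0.03 beside rises of 0.60 and 0.65, and Kif2c one at 0.03 beside 0.46 and 0.45. The dim probe sets of Top2a (control mean 3.67), Cdca3 (3.25 and 3.89) and Kif23 (3.14) showed no change that passed.

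The kinetochore, passenger complex and cytokinesis genes held the largest difference. All 10 measured rose in the deposited scaling, against 22.1% of all genes. Their median was 0.72 and their range 0.51 (Anln) to 1.63 (Ndc80). Under poly-A spike centring 5 rose and 0 fell, against 6.94% and 75.2% of all genes, and the median of the role was 0.29. Ndc80, the part of the outer kinetochore that grips microtubules, read 8.51, 8.36 and 8.43 in control and 10.05, 10.05 and 10.09 in starved arrays (1.63, SE 0.07, 3.09-fold, adjusted p = 1.46e-07). The arrays of each group lay close together and the groups far apart. Its window holds a CHR 29 bases past the start and no CCAAT.

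Centromere proteins also rose. Cenpf, a large protein of the outer kinetochore, read 8.49, 8.52 and 8.60 in control and 9.64, 9.68 and 9.59 in starved arrays (1.10, SE 0.07, adjusted p = 1.43e-06). The kinetochore motor Cenpe read 7.45, 7.33 and 7.45 in control and 8.09, 8.89 and 8.75 in starved arrays (1.17, SE 0.17, adjusted p = 0.000364). Starved replicate 1 stood below the other two, and the starved SD of Cenpe, 0.43, was the highest of the mitotic genes. Cenpa, the histone variant that marks the centromere, rose evenly, from 10.20 ± 0.04 to 11.02 ± 0.03 (0.82).

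The passenger complex rose by like amounts in its 3 measured genes, on the probe sets used. Its kinase Aurkb rose by 0.62 (SE 0.09), its scaffold Incenp by 0.60 (SE 0.07) and its small subunit Birc5, survivin, by 0.59 (SE 0.07). These 3 differences lay within 1 SE of each other, though a further Incenp probe set (control mean 8.41) lay at −0.03. Cdca8 was not analysed. Birc5 read 10.47, 10.40 and 10.48 in control and 11.06, 11.04 and 11.04 in starved arrays, among the tightest of the starved values. Aurkb, Incenp and Birc5 all lost their call under poly-A spike centring, at 0.19, 0.17 and 0.17.

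Genes of cytokinesis rose less evenly. Racgap1, the partner of Kif23 in centralspindlin, rose by 0.83 (10.07 ± 0.06 to 10.90 ± 0.02, adjusted p = 8.01e-06), near the 0.97 of Kif23. Ect2, the exchange factor that centralspindlin recruits to activate RhoA, read 8.20, 8.27 and 8.28 in control and 8.53, 8.85 and 9.12 in starved arrays (0.58, SE 0.13, adjusted p = 0.00412). Its groups did not overlap, but its starved arrays spread over more than the gap between the groups. Anln, the ring scaffold anillin, rose by 0.51. Ect2 and Anln lost their call under poly-A spike centring (0.16 and 0.087).

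Chromosome structure genes had the highest median of the roles. All 6 rose in the deposited scaling, by a median of 0.93, against 22.1% of all genes that rose. Under poly-A spike centring 5 rose and 0 fell, against 6.94% and 75.2% of all genes, and the median of the role was 0.50. Mki67, the coat protein of mitotic chromosomes that is used as the Ki-67 proliferation marker, read 10.89, 10.59 and 10.89 in control and 12.04, 12.04 and 11.98 in starved arrays (1.23, SE 0.09, 2.34-fold, adjusted p = 4.27e-06). Top2a, the topoisomerase that untangles sister chromatids, read 11.08, 10.95 and 11.08 in control and 11.96, 11.93 and 11.85 in starved arrays (0.88, SE 0.07, adjusted p = 8.96e-06). In both genes control replicate 2 was the lowest array and the gap to the starved arrays was wide.

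Condensin subunits differed in size. Its ATPase Smc4 rose by 1.03 (95% interval 0.86 to 1.19), the linker Ncaph by 0.98 (0.82 to 1.13) and Ncapg by 0.84 (0.65 to 1.02). Smc2, the ATPase that pairs with Smc4, read 10.15, 10.10 and 10.13 in control and 10.32, 10.55 and 10.64 in starved arrays, a rise of 0.37 (0.18 to 0.57, adjusted p = 0.00649). On the brightest probe sets the interval of Smc2 lies below those of the other 3 subunits, though probe sets can compress differences unequally. For Ncapg that holds only for the probe set used. Its further probe set (control mean 7.55) rose by 0.46 (SE 0.15), within the interval of Smc2. Smc2 lost its call under hybridization (0.19, adjusted p = 0.087) and poly-A spike centring (−0.051). The remaining condensin I subunit Ncapd2, outside the 45 genes and the highest of its list, rose by 1.03 (SE 0.11, adjusted p = 3.76e-05).

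In the deposited scaling the starved arrays lay at like distances from control over the whole set. The median distance of the 40 genes from their control means was 0.78, 0.69 and 0.73 in starved replicates 1, 2 and 3. In the control arrays it lay between −0.021 and 0.040. The poly-A spikes of starved replicates 1, 2 and 3 averaged 7.82, 7.96 and 7.76, and array distances under poly-A spike centring were not computed. Starved replicate 1 was the highest of the starved arrays in 8 of 13 kinases, cyclins and checkpoint genes, in 3 of 11 kinesins and spindle genes, in 4 of 10 kinetochore and cytokinesis genes and in 2 of 6 chromosome structure genes, and the lowest in 3, 5, 5 and 3 of them. The SD within a group had a median over the mitotic genes of 0.057 in control and 0.072 in starved arrays, against 0.075 and 0.10 over all genes. The medians of the 4 roles, 0.68, 0.73, 0.72 and 0.93, lie closer together than the members of any role, and their differences were not tested.

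**Figure D4:**
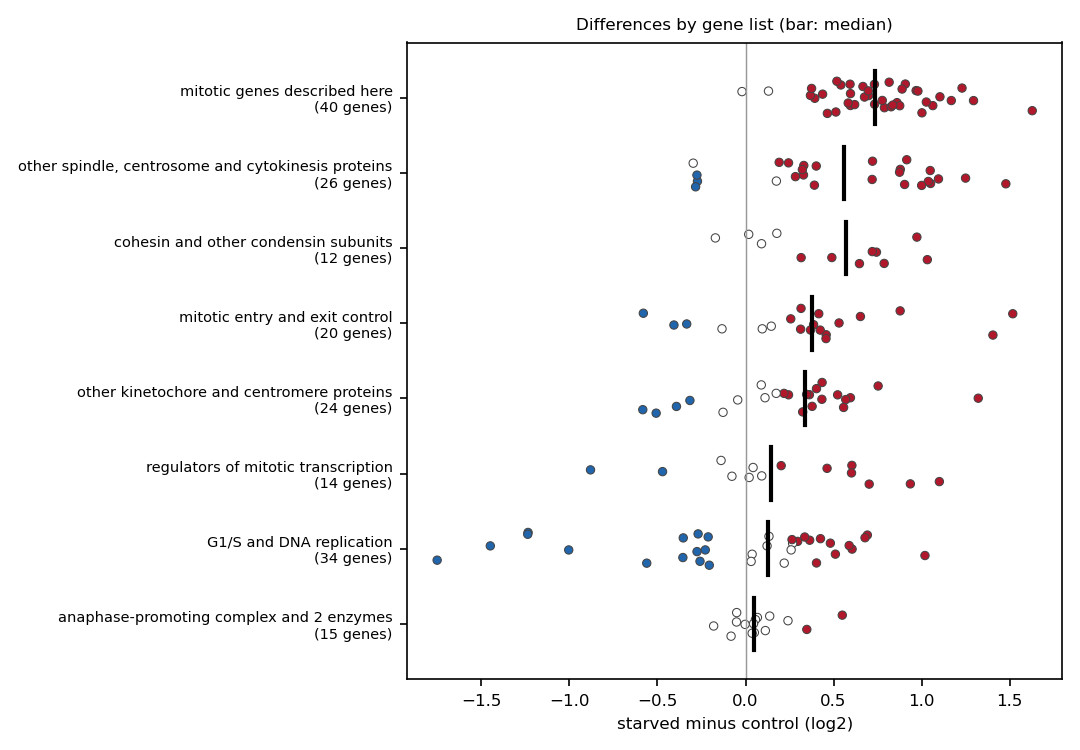
Starved minus control difference (log2, horizontal axis) of each measured gene, by list; black bars are medians, red and blue genes passed the test as higher or lower and white ones did not. In the deposited scaling the mitotic genes described here lie almost wholly to the right of 0 (median 0.73), while replication genes spread to both sides (0.13); the medians of the entry and exit, other kinetochore, regulator, replication and anaphase-promoting complex lists (the last with 2 conjugating enzymes) lie below 0 under poly-A spike centring.

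Other mitotic genes, listed for the pathway and not among the 45, rose less uniformly. The shares over all genes were 22.1% risen and 22% fallen as deposited. In the deposited scaling 21 of 26 further spindle, centrosome and cytokinesis genes rose and 3 fell, with a median of 0.56 (0.13 under poly-A spike centring). The spindle-assembly protein Dlgap5 (1.25), the midbody kinase Cit (1.48) and the spindle-pole protein Aspm (1.05) had the smallest adjusted p among the risen, and Ran (−0.27), Kpna2 (−0.28) and Nedd1 (−0.28) fell, while the lowest, the transport kinesin Kif3a (−0.30), did not pass. Of 24 further kinetochore and centromere genes 15 rose and 4 fell, with a median of 0.34 (−0.091 under poly-A spike centring). Cenpk (1.32), Spc25 (0.60), a partner of Ndc80, and Cenpn (0.75) had the smallest adjusted p among the risen, and Zw10 (−0.51), Cenpb (−0.58) and Mis12 (−0.39) among the fallen. Of 12 cohesin and further condensin subunits 8 rose and 0 fell, with 1 lower at an unadjusted p below 0.05 and a median of 0.57 (0.14 under poly-A spike centring). The cohesin subunits Stag2 (0.97) and Smc3 (0.79) and the cohesion factor Cdca5 (0.72) had the smallest adjusted p, and the acetyltransferase Esco1 was the lowest (−0.17, adjusted p = 0.0614).

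Genes that control entry into and exit from mitosis rose in 14 of 20 cases and fell in 3 as deposited. Of all genes 22.1% rose and 22% fell. The median of the list was 0.38 as deposited and −0.049 under poly-A spike centring. Mastl, the Greatwall kinase that shields Cdk1 targets from the phosphatase PP2A, read 7.26, 7.26 and 7.41 in control and 8.78, 8.75 and 8.95 in starved arrays (1.52, SE 0.08, adjusted p = 6.13e-07). Cdc25b, a phosphatase that activates Cdk1, rose by 1.40 and securin, Pttg1, by 0.88. Wee1 and Pkmyt1, kinases that inhibit Cdk1, rose too, by 0.46 and 0.65. The fallen genes were Arpp19 (−0.58), a substrate of Mastl, Cdc25a (−0.41) and Trip13 (−0.33).

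The factors that act on mitotic promoters moved in both directions. Of 14 measured, 7 rose, 2 fell and 5 missed the threshold as deposited, against 22.1% of all genes that rose and 22% that fell. The median of the 14 was 0.15 as deposited, which became −0.040 and −0.28 under hybridization and poly-A spike centring. Foxm1, the forkhead activator of mitotic genes, read 7.84, 7.57 and 7.81 in control and 8.68, 8.84 and 8.50 in starved arrays (0.94, SE 0.10, adjusted p = 5.87e-05). Rbl2, the pocket protein p130 of the DREAM repressor, rose to 9.24, 9.10 and 8.96 in the starved arrays, all above its control arrays (1.10, SE 0.08, adjusted p = 5.11e-06), so an activator and a repressor of the same promoters were both higher. The related Rbl1 (0.60), the MuvB subunits Lin37 (0.70) and Lin9 (0.60), the NF-Y subunit Nfya (0.46) and the atypical E2F E2f8 (0.20) rose. Tfdp1 (−0.88), the partner of E2F factors, and Nfyc (−0.47) fell. Mybl2, or B-Myb, overlapped between the groups (6.71 ± 0.14 and 6.73 ± 0.08, adjusted p = 0.872). Nfyb (0.04) and E2f5 (−0.08) also overlapped and did not pass. Rbbp4 (0.09, adjusted p = 0.295) and E2f4 (−0.14, adjusted p = 0.188) did not pass either, although their starved arrays lay wholly above and wholly below the control arrays.

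Genes of the preceding cell cycle phases did not follow the mitotic genes as a block. Of 34 genes of G1/S and DNA replication 13 rose and 14 fell in the deposited scaling, against 22.1% and 22% of all genes. The median of the 34 was 0.13, which became −0.060 and −0.30 under hybridization and poly-A spike centring. Cyclin D1, Ccnd1 (−1.24), cyclin E2, Ccne2 (−1.75), and the origin licensing factor Cdc6 (−1.23) fell, while the DNA polymerase subunit Pole rose by 1.02. The subunits of the replicative helicase parted. Mcm6 (0.68) and Mcm7 (0.69) rose, Mcm2 (−0.36), Mcm4 (−0.28) and Mcm3 (−0.21) fell, and Mcm5 (0.03) did not pass.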

How the data were processed

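Total RNA of 3 control and 3 starved samples was labelled with biotin and hybridised to short-oligonucleotide arrays, 1 sample per array. The authors deposited 1 log2 signal per probe set and array, made with affy and RMA per the submitters' processing notes, with no version of either in the sources used here. The RMA step fixes each array's signal distribution, so a change in total messenger RNA per cell is removed, and folds of dim genes are compressed. Arrays hold no read depth, so their number limits the precision.

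The 22690 probe sets include 64 controls of the array. In the platform annotation 20380 of the rest name 1 gene, 691 name several and 1555 name none. Gene identifiers of 20351 of the 20380 were in the RefSeq table. Each of 12393 genes took its brightest probe set with 1 gene, by the mean over all 6 arrays, with no filter on dim genes. limma 3.58.1 in R 4.3.3 (lmFit, eBayes, two-sided, no covariate, Benjamini-Hochberg over all genes, adjusted p below 0.05) was fitted to all 6 arrays, and the steps were tested on simulated data. Intervals are 95% intervals of that fit. Tables and plots used Python 3.11.15, pandas 2.3.3 and matplotlib 3.10.9.

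Named are all 45 members, the 14 regulators and, from other lists, up to 3 higher and 3 lower genes with the smallest adjusted p and a list's highest and lowest member, with Ccnd1 and Mcm6; Wee1, Pkmyt1, Pdgfrb, Thy1, Fap and Mcm2 to Mcm5 were named after their values were seen. The members, roles and lists, written from textbook knowledge, were chosen with earlier results of these data known. The promoter search was added after the files were seen. Alternatives were to average a gene's probe sets, to omit those named as able to bind several transcripts or the dimmest 40% of genes, to normalize by quantiles, to centre on array medians, poly-A (24 probe sets) or hybridization spikes (18), to fit eBayes with a trend and robustly, with array weights, with the replicate number as block or without each array, and to call at an adjusted p below 0.01 or by treat against a fold change of 1.2.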

Additional observations from a re-analysis of the deposited data

How the results depend on the processing

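The count of risen mitotic genes was 33 to 39 of 40 in all 18 alternatives except poly-A spike centring, with 25, 2 fallen and a median of 0.31; hybridization spike centring moved the median to 0.54. Leaving out each array in turn gave 37 to 38 risen, 0 fallen and medians of 0.71 to 0.76. The replicate numbers are not known to pair the arrays: deviations of same-numbered arrays correlated at −0.0046, −0.022 and 0.0021, and the fit with the replicate block gave 38 risen and a median of 0.73. Signs changed, without passing except for Kif22, under poly-A spike centring for Cdk1 (−0.033), Bub1b (−0.058), Kif22 (−0.30) and Smc2 (−0.051), and under hybridization spike centring for Kif22 (−0.057). Without probe sets that can bind several transcripts Cdca3 (−0.034) and Top2a (−0.046) rest on dim probe sets, and without single arrays Tpx2 ranged from −0.060 to 0.026, above 0 without control replicate 1. Both motifs were found in 14 of 34 promoters (41.2%) with the search held to 50 bases of the start, against 1.16% of genes tested. Beyond these, the cause was not tested. Each spike-in centring subtracts 1 uncertain value per array, shared by all genes.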
